A study of Mus musculus with 41 samples.

Results

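Antigen presentation by MHC class I was followed through 10 genes in bone RNA of INK-ATTAC mice, namely the heavy chains H2-K1 and H2-D1, the light chain B2m, the peptide transporter and loading genes Tap1, Tap2 and Tapbp, the immunoproteasome subunits Psmb8, Psmb9 and Psmb10, and the class I regulator Nlrc5. They were named by gene symbol, with earlier results of these data known, and all 10 were found once among the 43346 genes of the count table and among the 19292 genes that passed the filter on low counts. INK-ATTAC mice carry a drug-inducible suicide transgene under the promoter of Cdkn2a (p16Ink4a), so that AP20187 (AP) triggers death of cells that use that promoter, and all 41 animals were females of this line on a C57BL/6 background. RNA came from tibial shafts that had been centrifuged to remove marrow elements. There were 12 young mice, 13 old + vehicle mice and 16 old + AP mice, and the young mice were also labelled as given vehicle. The old mice were injected from 20 months of age for 4 months with vehicle or with AP at 10 mg per kg, which places their sacrifice at 24 months. The labels give the young mice an age of 6 to 12 months, and the study's methods describe young INK-ATTAC mice of 6 months. All 3 groups carry the transgene, so no group shows the effect of AP in animals without it.

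MHC class I molecules show fragments of a cell's own proteins to CD8 T cells. Proteins are cut by the proteasome, the fragments are carried into the endoplasmic reticulum by the TAP transporter and are loaded onto a heavy chain that is paired with beta-2-microglobulin. Interferon signalling exchanges the catalytic subunits of the standard proteasome (Psmb5, Psmb6 and Psmb7) for those of the immunoproteasome, and it induces Nlrc5, which acts with factors bound to a shared promoter module. Nearly all nucleated cells carry class I molecules, and blood-forming and immune cells carry more of them than bone or muscle cells do. In bulk tissue, fewer cells of a type and less RNA per cell cannot be told apart.

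Promoter sequence is shown for the genes of the class I complex itself. The part of promoter sequence in the levels of these genes was not tested. Of the 10 genes, 8 were matched in the RefSeq promoter table (GRCm38.p6). Tap2 and Nlrc5 were not among them. Capitals mark letters searched on both strands, namely GGGNNTTCC (a kappa B motif), GAANNGAAA and GAAANNGAA (spacings of an interferon regulatory factor motif), TGACG (the core of a cyclic AMP response element) and CCAAT. These letters were chosen after the windows had been read. The H2-K1 window lies at chr17:34000348-34000597 on the minus strand and the B2m window at chr2:122147437-122147685 on the plus strand, and neither overlaps an annotated exon.
H2-K1 upstream: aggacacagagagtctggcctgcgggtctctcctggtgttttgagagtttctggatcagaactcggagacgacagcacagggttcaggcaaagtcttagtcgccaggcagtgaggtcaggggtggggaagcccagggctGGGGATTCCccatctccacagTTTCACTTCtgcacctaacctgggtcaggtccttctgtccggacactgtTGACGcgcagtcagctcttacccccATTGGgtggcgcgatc
B2m upstream: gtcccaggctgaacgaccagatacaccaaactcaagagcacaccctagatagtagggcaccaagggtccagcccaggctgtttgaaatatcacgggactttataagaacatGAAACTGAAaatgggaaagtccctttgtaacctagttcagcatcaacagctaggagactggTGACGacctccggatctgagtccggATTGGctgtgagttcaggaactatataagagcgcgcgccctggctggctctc

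The kappa B and interferon motifs stood side by side in both heavy chain genes. Over 30 bases that hold both, H2-K1 (chr17:34000429-34000458, minus strand) and H2-D1 (chr17:35262923-35262952, plus strand, inside an exon of an annotated isoform) were identical at 29 positions. The single difference was A18T, with the H2-K1 base first and positions counted from 1 at the 5′ end of the stretch.
H2-K1 stretch: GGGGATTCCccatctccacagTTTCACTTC
H2-D1 stretch: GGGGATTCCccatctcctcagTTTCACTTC

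Among 32851 promoter windows of 250 bases, GGGNNTTCC was in 4.98% and GAANNGAAA in 6.31%, and among the 8 matched genes both were in H2-K1 and H2-D1. The other spacing, GAAANNGAA, was in 7.13% of the windows and, among the 8 genes, in B2m. TGACG was in 17.8% of the windows and in 5 of the 8 genes (H2-K1, H2-D1, B2m, Tap1 and Psmb9), and CCAAT was in 33.8% of the windows and in these 5 and Tapbp. A match of letters says nothing of binding, and no match says only that the letters are not in this window.

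Levels are given as CPM, counts scaled to a common library size with TMM factors. Total counts were between 37028959 and 75942717 per mouse, and the lowest count of any of the 10 genes in any mouse was 970 (Psmb9), so counting error was small beside the spread between mice. Per kilobase of gene model, the order of the mean levels in young mice was B2m (937.5 ± 131.5 CPM per kb, SD, n = 12), H2-D1 (354 ± 56.8), H2-K1 (256 ± 39.9), Tapbp (40.03 ± 5.95), Psmb10 (33.45 ± 4.83), Psmb8 (20.7 ± 3.78), Tap2 (17.7 ± 3.68), Tap1 (12.3 ± 2.47), Psmb9 (10.2 ± 1.87) and Nlrc5 (8.27 ± 1.905). Neighbours in this order lay within the sum of their SDs between Tapbp and Psmb10 and all along from Psmb8 to Nlrc5. The order of the means was the same in both old groups. The 3 genes of the class I complex itself were thus far above the genes that make and load its peptides. The 10 genes took 0.291% of the counts in young, 0.298% in old + vehicle and 0.312% in old + AP mice.

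H2-K1 (ENSMUSG00000061232, chromosome 17, 33996017 to 34000333) and H2-D1 (ENSMUSG00000073411, chromosome 17, 35262730 to 35267499) encode the classical heavy chains. H2-K1 was at 668 ± 104 CPM (SD, n = 12) in young, 753.5 ± 255 (SD, n = 13) in old + vehicle and 684 ± 150 (SD, n = 16) in old + AP mice. Single young mice lay between 515 and 800 CPM (median 645), old + vehicle mice between 401 and 1291 (median 770), and old + AP mice between 485 and 1110 (median 689.7). The old + vehicle mice thus reached beyond the young mice at both ends. H2-D1 was at 914 ± 147 CPM in young, 1018 ± 303 in old + vehicle and 928 ± 158 in old + AP mice, with the same order of groups. The lowest, median and highest H2-D1 levels were 691, 924 and 1095 in young, 537.5, 1009 and 1542 in old + vehicle, and 690.4, 960.2 and 1219 in old + AP mice. H2-K1 and H2-D1 share long stretches of sequence with the H2-Q and H2-T genes, so the split of reads among them is uncertain. Summed over 12 such genes, the heavy chains were at 2169 ± 337 CPM in young, 2428 ± 777 in old + vehicle and 2258 ± 471 in old + AP mice, with 72.88%, 73.05% and 70.88% of that sum on H2-K1 and H2-D1. The log2 fold change of the sum was 0.16 (SE 0.14, adjusted p = 0.452) for old + vehicle against young, -0.10 (SE 0.13, adjusted p = 0.631) for old + AP against old + vehicle and 0.06 (SE 0.13, adjusted p = 0.801) for old + AP against young, by edgeR's quasi-likelihood test.

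B2m (ENSMUSG00000060802, chromosome 2, 122147686 to 122153083) encodes the light chain, without which heavy chains do not reach the surface. It was at 806 ± 113 CPM (SD, n = 12) in young, 778 ± 183.5 (SD, n = 13) in old + vehicle and 815 ± 140 (SD, n = 16) in old + AP mice. The lowest, median and highest levels were 582, 827 and 1008 CPM in young, 500.2, 827 and 1094 in old + vehicle, and 579, 834.5 and 1156 in old + AP mice. The medians of young and old + vehicle mice were the same to within 1 CPM, and B2m had the narrowest spread of the 10 genes among old + vehicle mice.

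Tap1 (ENSMUSG00000037321, chromosome 17, 34187553 to 34197225) and Tap2 (ENSMUSG00000024339, chromosome 17, 34203527 to 34216321) encode the subunits of the peptide transporter, and Tapbp (ENSMUSG00000024308, chromosome 17, 33915899 to 33929288) encodes tapasin, which bridges it to the heavy chain. Tap1 was at 67.3 ± 13.5 CPM in young, 82.5 ± 35.1 in old + vehicle and 82.1 ± 26.6 in old + AP mice, with ranges of 49.6 to 86.9, 42.45 to 179 and 52.4 to 162. One old mouse in each treatment stood well above the rest, at 179 CPM against 106 CPM or less in the other vehicle-treated mice (mouse 23) and at 162 CPM against 109 or less in the other AP-treated mice (mouse 18). Tap2 was at 66.8 ± 13.9 CPM in young (43.1 to 87.5), 84.8 ± 27.96 in old + vehicle (42.5 to 134) and 73.2 ± 14.3 in old + AP mice (49.9 to 102). Tapbp was at 132 ± 19.6 CPM in young (102 to 162), 153 ± 42.4 in old + vehicle (80.6 to 220.0) and 134 ± 14.1 in old + AP mice (113 to 158.5). For both Tap2 and Tapbp the old + vehicle mice reached from the lowest to the highest level of all 41 mice.

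Psmb8 (ENSMUSG00000024338, chromosome 17, 34197721 to 34201454), Psmb9 (ENSMUSG00000096727, chromosome 17, 34181988 to 34187764) and Psmb10 (ENSMUSG00000031897, chromosome 8, 105935728 to 105938392) encode the catalytic subunits of the immunoproteasome. Psmb8 was at 56.75 ± 10.35 CPM in young (40.9 to 72.4), 68.6 ± 23.65 in old + vehicle (36.8 to 123) and 70.7 ± 19.6 in old + AP mice (48.8 to 128). Psmb9 was at 37.25 ± 6.83 CPM in young (29.7 to 48.5), 47.1 ± 17.9 in old + vehicle (24.4 to 94.2) and 47.5 ± 14.1 in old + AP mice (27.9 to 88.3). Psmb10 was at 42.5 ± 6.13 CPM in young (35.9 to 52.35), 44.3 ± 13.2 in old + vehicle (22.2 to 67.85) and 38.15 ± 7.67 in old + AP mice (23.3 to 53.3). For each subunit the range of the young mice lay inside that of the old + vehicle mice. Psmb9 and Tap1 overlap by 212 bases on opposite strands, and the strand setting of the counting is not given in the sources used here, so reads in that stretch cannot be assigned with certainty.

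Nlrc5 (ENSMUSG00000074151, chromosome 8, 94472763 to 94527272) encodes the class I transactivator. It was at 63.2 ± 14.6 CPM (SD, n = 12) in young, 63.7 ± 23.8 (SD, n = 13) in old + vehicle and 71.0 ± 28.4 (SD, n = 16) in old + AP mice. The lowest, median and highest levels were 44.4, 59.3 and 95.8 CPM in young, 38.65, 58.4 and 125 in old + vehicle, and 41.2, 67.6 and 169 in old + AP mice. The highest old + AP mouse was again mouse 18, and the next was at 80.5 CPM.

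**Figure D1:**
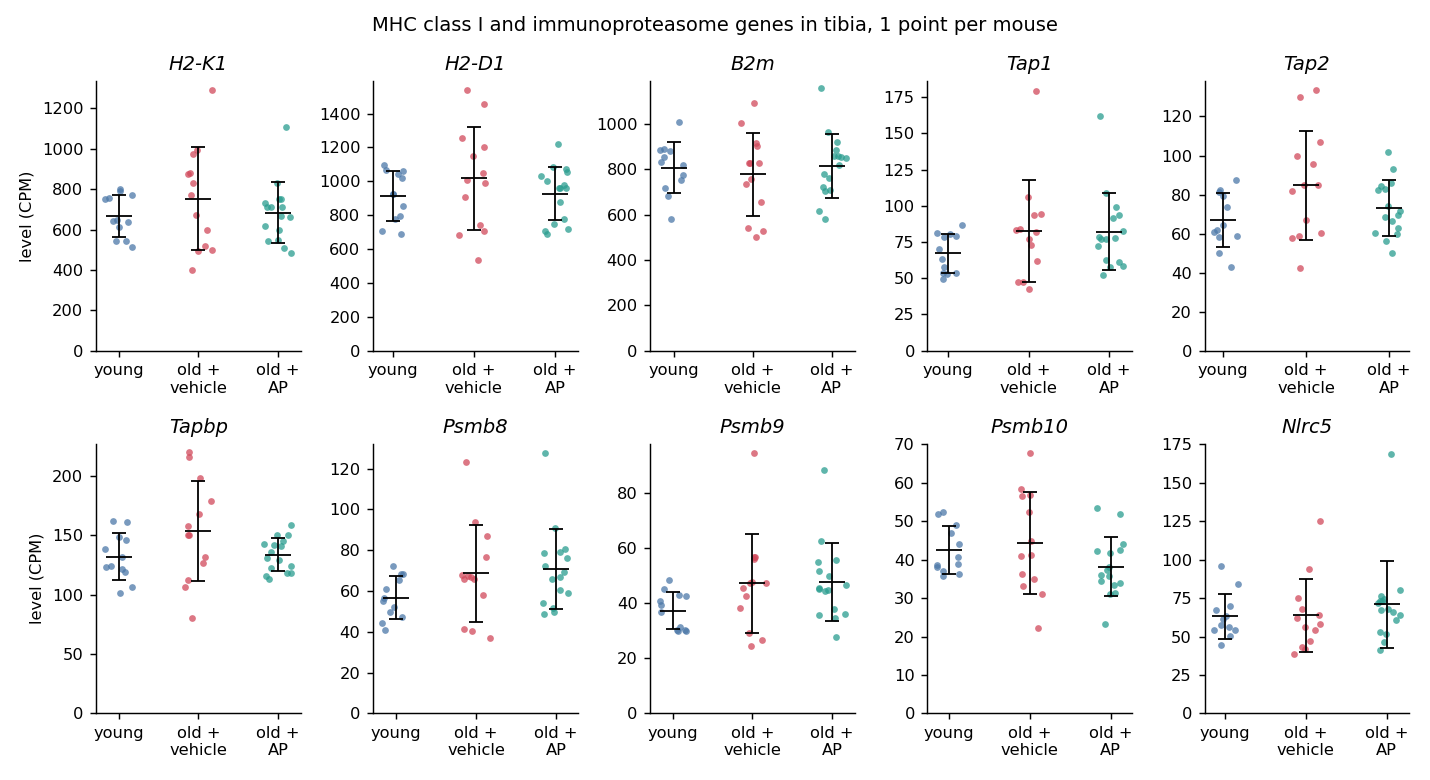
Level of each gene in CPM (vertical axes, starting at 0) in single mice (points) of the 3 groups, with the mean and SD over mice in black (12 young, 13 old + vehicle and 16 old + AP). The groups overlap for all 10 genes, and in most panels 1 old + vehicle and 1 old + AP mouse stand at the top.

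In old + vehicle against young mice, which addresses ageing, 0 of the 10 genes passed the threshold (a log2 fold change beyond 0.5 in either direction with an adjusted p below 0.05, by the quasi-likelihood test of edgeR and Benjamini-Hochberg), against 9.06% of the 19292 genes tested. DESeq2 also called 0 of the 10, against 2114 of the 32309 genes with a count. By the adjusted p alone the counts were again 0 of 10 against 19.4% of all genes. Among the 10, 2 (Tap2 and Psmb9) had an unadjusted p under 0.05, a share below the 31.8% of all genes. Of the 10 estimates, 9 were above 0 against 51.1% of all genes and a median log2 fold change of 0.20 against 0.0066. Tap2 had the smallest adjusted p, with a log2 fold change of 0.34 (SE 0.14, adjusted p = 0.0842, 9 of 13 mice above the young median). Psmb9 followed at 0.34 (SE 0.16, adjusted p = 0.136, 10 of 13 above), Tapbp at 0.22 (SE 0.11, adjusted p = 0.165) and Psmb8 at 0.27 (SE 0.15, adjusted p = 0.213). For Tap1 the estimate was 0.29 (SE 0.17, adjusted p = 0.246), for H2-K1 0.17 (SE 0.14, adjusted p = 0.423) and for H2-D1 0.16 (SE 0.13, adjusted p = 0.433). Psmb10 (0.06, adjusted p = 0.785), Nlrc5 (0.01, adjusted p = 0.972) and B2m (-0.05, adjusted p = 0.796) were nearest to 0. The 95% intervals of all 10 genes lay between folds of 0.797 and 1.58, and the highest bound was that of Psmb9. Without old + vehicle mouse 20, the lowest for 8 of the 10 genes, Tap2 (0.40, adjusted p = 0.0303) and Tapbp (0.27, adjusted p = 0.0454) passed the adjusted p but not the fold threshold. Without mouse 23 the Tap2 value was 0.27 (adjusted p = 0.18), and Tap1 was at 0.14 (adjusted p = 0.575), Psmb9 at 0.21 (adjusted p = 0.34), Psmb8 at 0.17 (adjusted p = 0.441), H2-K1 at 0.085 (adjusted p = 0.72) and H2-D1 at 0.092 (adjusted p = 0.672). Nlrc5 (-0.11) and Psmb10 (-0.0035) were then below 0, B2m was at -0.10, and the median over the 10 genes was 0.12 with 7 above 0.

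In old + AP against old + vehicle mice, the comparison that addresses removal of p16Ink4a-expressing cells, 0 of the 10 genes passed the threshold by edgeR or by DESeq2. Of all genes, edgeR called 0.0726% (14 genes) of those tested and DESeq2 called 204 of the 32309 with a count. By edgeR's adjusted p alone 0 of the 10 passed, against 0.171% of all genes. None had an unadjusted p under 0.05, against 23.9% of all genes. Of the estimates, 4 were above 0 and 6 below, with a median of -0.07 against -0.0037 over all genes. Tapbp had the smallest adjusted p at -0.20 (SE 0.10, adjusted p = 0.22, 2 of 16 mice above the vehicle median). Psmb10 (-0.22, SE 0.12, adjusted p = 0.257) and Tap2 (-0.21, SE 0.13, adjusted p = 0.319) followed. The heavy chains H2-K1 (-0.14, SE 0.13, adjusted p = 0.517) and H2-D1 (-0.13, SE 0.12, adjusted p = 0.498) were lower on average, and Nlrc5 (0.16, SE 0.16, adjusted p = 0.555) and B2m (0.07, SE 0.10, adjusted p = 0.714) higher, all within the spread between mice. Tap1 (-0.01), Psmb8 (0.04) and Psmb9 (0.01) were nearly level. The 95% intervals lay between folds of 0.721 and 1.39. Without mouse 18 the Nlrc5 estimate was 0.0047 and Tap1, Psmb8 and Psmb9 were at -0.12, -0.05 and -0.09, still without a call (smallest adjusted p among these 4 = 0.68). H2-K1 was then at -0.22 and H2-D1 at -0.18, and the median over the 10 genes was -0.15 with 2 estimates above 0 and 8 below. Without mouse 20 it was -0.13, again with 2 above 0, and H2-D1 was at -0.19. Without mouse 23 the median turned to 0.032 with 5 estimates above 0, and H2-K1 was at -0.052 and H2-D1 at -0.070.

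In old + AP against young mice, 0 of the 10 genes passed the threshold by edgeR or by DESeq2. Of all genes, edgeR called 8.58% of those tested and DESeq2 called 1987 of the 32309 with a count. By edgeR's adjusted p alone 0 of the 10 passed, against 17.8% of all genes. This comparison shares the AP-treated mice with the second and the young mice with the first. Psmb8 and Psmb9 had an unadjusted p under 0.05, or 2 of 10 against 32.2% of all genes. Psmb9 was at a log2 fold change of 0.35 (SE 0.15, adjusted p = 0.105, 11 of 16 mice above the young median) and Psmb8 at 0.32 (SE 0.15, adjusted p = 0.124, 12 of 16). Without mouse 18 these values were 0.25 (adjusted p = 0.251) and 0.22 (adjusted p = 0.29). With all mice, Tap1 was at 0.29 (SE 0.17, adjusted p = 0.231), Nlrc5 at 0.17 (SE 0.17, adjusted p = 0.51) and Psmb10 at -0.16 (SE 0.12, adjusted p = 0.394). The genes H2-K1 (0.03), H2-D1 (0.02), B2m (0.01) and Tapbp (0.02) were nearly level, and Tap2 was at 0.13 (adjusted p = 0.537). Without mouse 18, Tap1 was at 0.17 (adjusted p = 0.487), Tap2 at 0.077 (adjusted p = 0.752) and Nlrc5 at 0.016 (adjusted p = 0.957). The median over the 10 genes was 0.08 against 0.017 over all genes, with 9 of 10 above 0 against 52.9%. Both depend on single mice, and most on mouse 18. Without mouse 18 the median was 0.0010 and 5 of the 10 estimates were above 0, with H2-K1 at -0.040, B2m at -0.039, H2-D1 at -0.022 and Tapbp at -0.014. Without AP-treated mouse 17, 19 or 25 or young mouse 37, 6 of the 10 were above 0, with medians of 0.055, 0.064, 0.055 and 0.054. Without young mouse 40, 7 were above 0 (median 0.062).

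**Figure D2:**
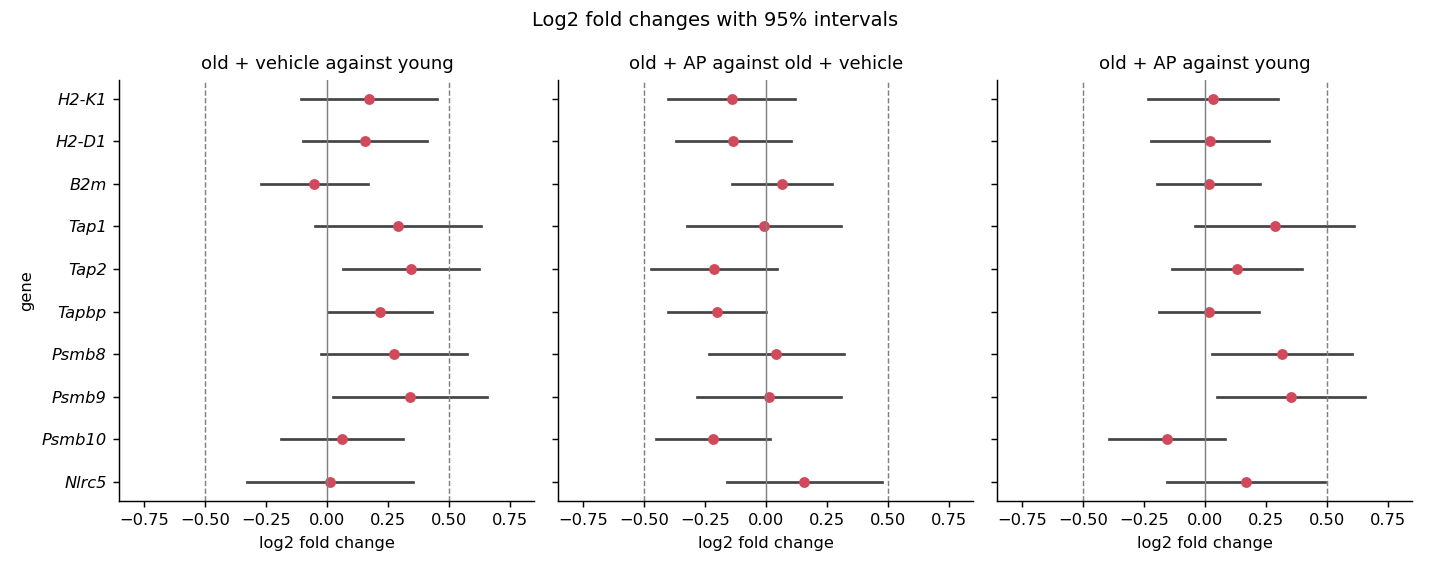
Log2 fold change of each gene (points, horizontal axes) with its 95% interval (lines) in the 3 comparisons. Dashed lines mark the fold threshold of 0.5 in each direction, which no estimate passes, and before adjustment over all genes the intervals, taken from the normal distribution, lie above 0 for Tap2, Tapbp and Psmb9 (old + vehicle against young) and for Psmb8 and Psmb9 (old + AP against young) and just below 0 for Tapbp (old + AP against old + vehicle). By edgeR's quasi-likelihood test the unadjusted p of Tapbp was 0.0538 and 0.0565 in these comparisons. Its normal intervals are thus narrower than that test allows.

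The log2 ratio of counts was taken for each immunosubunit to the standard subunit whose place it takes, which needs no scaling between libraries. It is a ratio of RNA in mixed tissue, so it does not measure the exchange of subunits in proteasomes. Psmb8 to Psmb5 was at -0.46 ± 0.51 (SD, n = 12) in young, -0.49 ± 0.66 (SD, n = 13) in old + vehicle and -0.05 ± 0.58 (SD, n = 16) in old + AP mice, with 11 of 16 AP-treated mice above the vehicle median. Its difference was 0.43 (95% interval -0.02 to 0.89, p = 0.0693, adjusted p = 0.208 over 9 tests) for old + AP against old + vehicle by a two-sided permutation test. The standard subunit Psmb5 itself was at 92.8 ± 20.6 CPM in old + vehicle and 72.4 ± 14.9 CPM in old + AP mice (log2 fold change -0.36, SE 0.11, adjusted p = 0.0661 by edgeR), whereas Psmb8 was nearly level. In the same comparison 7 skeletal muscle markers had a median log2 fold change of -0.57 against -0.0037 over all genes, with 0 called by edgeR. The part of muscle RNA in these ratios was not tested. Psmb9 to Psmb6 was at -1.71 ± 0.50 in young, -1.58 ± 0.69 in old + vehicle and -1.28 ± 0.58 in old + AP mice. Its largest difference, 0.43 (95% interval 0.03 to 0.83) for old + AP against young, had a permutation p of 0.0487 and an adjusted p of 0.208. Psmb10 to Psmb7 was at -1.67 ± 0.61, -1.79 ± 0.81 and -1.82 ± 0.55, and its 3 differences had permutation p-values of 0.52 to 0.905. None of the 9 ratio differences passed the adjustment.

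On the log2 scale the spread between mice was widest among the old + vehicle mice. For Nlrc5 this order turned on the CPM scale, where the SD was 28.4 CPM (40.1% of the mean) in old + AP and 23.8 CPM (37.4%) in old + vehicle mice. The SD of log2 CPM over mice was larger in old + vehicle than in young mice for all 10 genes, by ratios of 1.53 (Nlrc5) to 2.22 (Psmb10) with a median of 1.89. Over all 19292 genes that ratio was above 1 for 71.6% and had a median of 1.21. Against old + AP mice the SD of the vehicle group was again larger for all 10 genes, by 1.06 (Nlrc5) to 2.78 (Tapbp) with a median of 1.495, where 47.8% of all genes had a ratio above 1 and the median was 0.983. Between old + AP and young mice the ratio ran from 0.706 (Tapbp) to 1.47 (Psmb9), above 1 for 8 genes, with a median of 1.32 against 1.21 over all genes. The genes move together, so these 10 ratios are close to one observation, and they were given no test. With the lowest and the highest mouse of each gene left out in every group, the ratios of vehicle to young mice were 1.47 to 2.20 (median 1.692, against 1.18 over all genes), and those of vehicle to AP-treated mice were 1.34 to 2.44 (median 1.604, against 0.933). The ratios of AP-treated to young mice were then 0.748 to 1.30, above 1 for 8 genes, with a median of 1.08, which lay below the 1.24 of all genes.

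**Figure D3:**
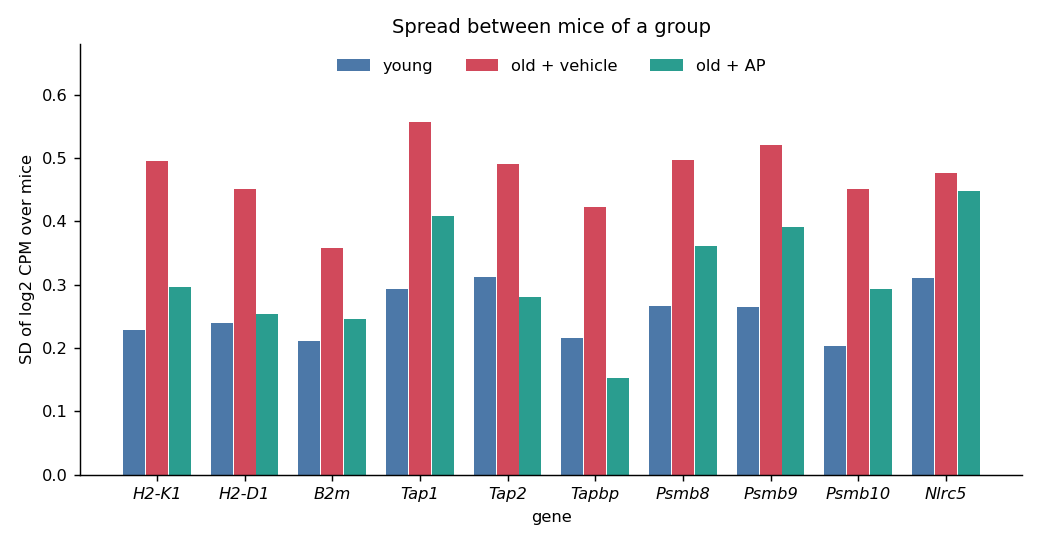
SD of log2 CPM over mice (vertical axis, starting at 0) for each gene in young, old + vehicle and old + AP mice. The old + vehicle bar is the highest for all 10 genes, and the smallest gap to the AP-treated mice is that of Nlrc5 (0.477 against 0.448).

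Within groups the 10 genes rose and fell together from mouse to mouse. After removal of the group means, Pearson's r over 41 mice was 0.982 for Tap1 with Psmb9 (Spearman's rho 0.970), 0.967 for Psmb8 with Psmb9 (rho 0.967), 0.958 for H2-K1 with H2-D1 (rho 0.962), 0.952 for Tap1 with Psmb8 (rho 0.929) and 0.937 for Tap2 with Tapbp (rho 0.939). The lowest of the 45 pairs was Tapbp with Nlrc5 (r = 0.569, rho 0.600). Tap1, Psmb8, Psmb9, Tap2, Tapbp, H2-K1 and H2-D1 lie on chromosome 17, and the first 4 of these stand next to each other, whereas Psmb10 and Nlrc5 are on chromosome 8 and B2m is on chromosome 2. The part of the overlap of Psmb9 and Tap1, and of the sequence shared by the heavy chains, in their pair values was not tested.

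The same mice stood at the ends of their groups for most of the genes. Mouse 23 was the highest old + vehicle mouse for 9 of the 10 genes (mouse 7 for Tapbp), mouse 18 was the highest old + AP mouse for all 10, and mouse 20 was the lowest old + vehicle mouse for 8 (mouse 16 for Psmb9 and Nlrc5). The mean z-score over the 10 genes had an SD of 0.607 in young, 1.26 in old + vehicle and 0.765 in old + AP mice. It reached 2.39 in mouse 23 and 1.95 in mouse 18, was -2.11 in mouse 20, and did not pass 0.51 in any young mouse.

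**Figure D4:**
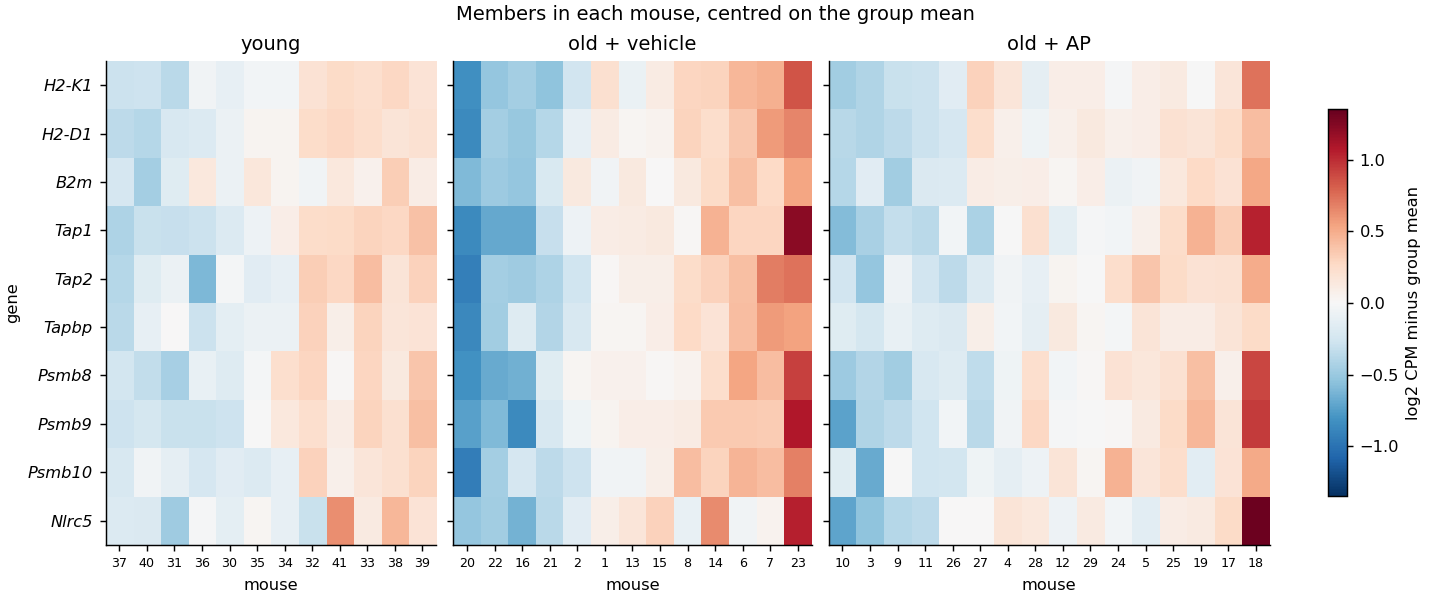
Log2 CPM minus the group mean (colour) for the 10 genes (rows) in each mouse (columns, by mouse number), with mice of a group ordered by their mean z-score. Columns are nearly of one colour, from mouse 20 to mouse 23 among old + vehicle mice and up to mouse 18 among old + AP mice, and Nlrc5 departs most often from the other rows.

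Nlrc5 was set against the other 9 genes because it is the known regulator of class I genes. Its r over 41 mice was highest with Tap1 (r = 0.873, rho = 0.833, adjusted permutation p = 1.5e-05 for both), Psmb9 (r = 0.843, rho = 0.753), H2-K1 (r = 0.819, rho = 0.760) and B2m (r = 0.802, rho = 0.787). Psmb8 (r = 0.779, rho = 0.688) and H2-D1 (r = 0.741, rho = 0.725) followed. It was lower with Tap2 (r = 0.655, rho = 0.638), Psmb10 (r = 0.632, rho = 0.587) and Tapbp (r = 0.569, rho = 0.600, adjusted permutation p = 0.00012 for r and 0.000113 for rho). All 9 relations passed the adjustment over 9 tests, with permutation within groups, 100000 resamples and a smallest possible p of 1e-05. The share of all genes related to Nlrc5 in this way was not computed, so the 9 passes have no background beside them. Without mice 18 and 23, the farthest from the median of Nlrc5, r was between 0.510 (Tapbp) and 0.800 (Tap1). Within groups r ran from 0.281 (Tapbp) to 0.748 (H2-K1) in the 12 young mice, from 0.690 (Tapbp) to 0.940 (Tap1) in the 13 old + vehicle mice and from 0.624 (Psmb10) to 0.904 (Tap1) in the 16 old + AP mice. When each gene was set against the mean of the others, Nlrc5 had the lowest r (0.800). The other genes had 0.860 (Psmb10) to 0.954 (H2-D1).

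**Figure D5:**
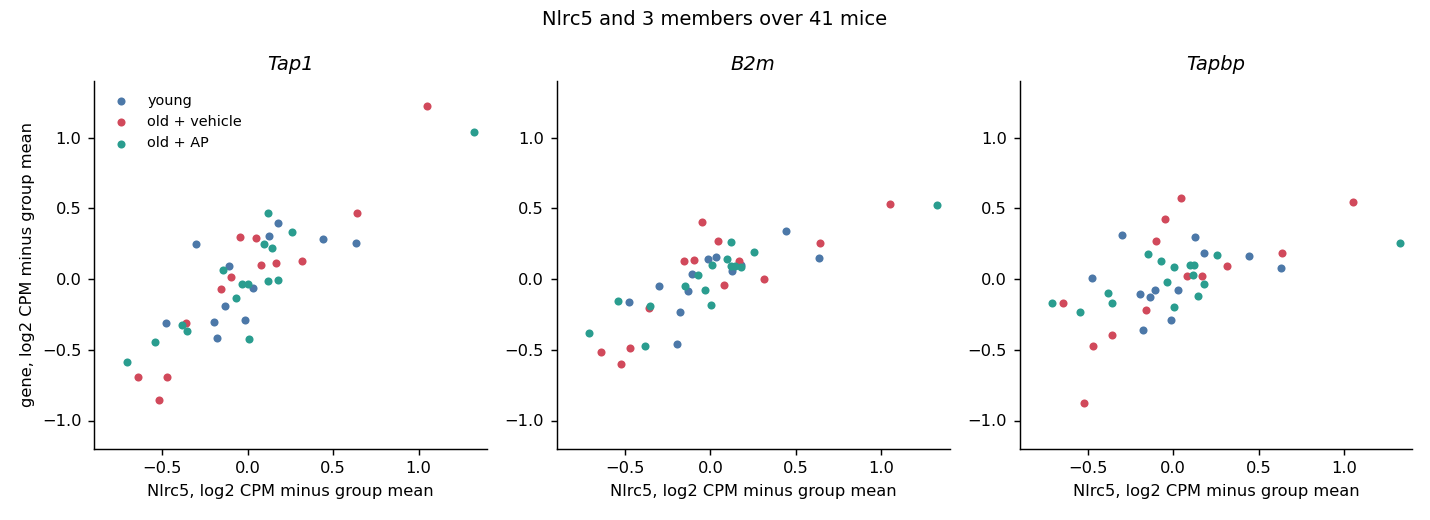
Log2 CPM minus the group mean of Tap1, B2m and Tapbp (vertical axes) against that of Nlrc5 (horizontal axes), 1 point per mouse, coloured by group. The points lie closest to a line for Tap1 (r = 0.873) and are most scattered for Tapbp (r = 0.569), with mice 18 and 23 at the far right.

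Among 15531 genes with a mean of at least 1 CPM, those whose group-centred levels were most like the mean of the 10 over 41 mice were the non-classical heavy chains H2-T23 (r = 0.953) and H2-M3 (r = 0.910), the proteasome activator subunit Psme1 (r = 0.906), the leukocyte integrin subunit Itgb7 (r = 0.899), the class II loading gene H2-DMa (r = 0.896), Parp10 (r = 0.894), the heavy chain H2-Q4 (r = 0.893) and the peptide-editing gene Tapbpl (r = 0.889). These values are a description of likeness over the same libraries. Of the 8, 6 stood in lists of presentation genes fixed for this work, and Itgb7 and Parp10 did not. Irf1, an interferon-induced transcription factor, was ninth (r = 0.883).

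Other genes of the pathway were counted in lists. Of 16 tested class I and class I-like heavy chains, 0 rose and 1 fell in old + vehicle against young mice, Cd1d1, which presents lipids (34.9 ± 7.85 against 54.2 ± 10.6 CPM, log2 fold change -0.64, SE 0.15, adjusted p = 0.00296). It was also the only one of these called in old + AP against young mice (-0.61, SE 0.15, adjusted p = 0.00344). In both comparisons 1 of 16 was below the share of all genes called (9.06% and 8.58%). Of 8 chaperones and trimming genes of class I assembly, 3 standard catalytic subunits, 5 proteasome activators and assembly genes and 22 class I regulators, 0 were called by edgeR in any of the 3 comparisons. At an unadjusted p under 0.05 the regulators counted 7 (old + vehicle against young), 10 (old + AP against old + vehicle) and 6 of 22 (old + AP against young), the assembly genes 1, 2 and 5 of 8, the standard subunits 1, 2 and 0 of 3, and the activators 0, 0 and 1 of 5, where 31.8%, 23.9% and 32.2% of all genes had such a p. The calnexin gene Canx (0.19, SE 0.06, adjusted p = 0.0189, old + AP against young) and the regulators Rela (0.28, SE 0.08, adjusted p = 0.00998, old + vehicle against young) and Irf2 (0.32, SE 0.07, adjusted p = 0.00262, old + AP against young) had small adjusted p-values but lay under the fold threshold. The median log2 fold changes of these 5 lists ran from -0.25 (standard catalytic subunits, old + AP against old + vehicle) to 0.19 (heavy chains, old + AP against young), and the latter was 0.075 without mouse 18.

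Of 20 interferon-stimulated genes, 1 rose in old + vehicle against young mice, the double-stranded RNA sensor Oas2 (31.5 ± 17.3 against 19.4 ± 4.52 CPM, log2 fold change 0.70, SE 0.23, adjusted p = 0.0268), or 1 of 20 against 9.06% of all genes. In all, 4 of 20 rose in old + AP against young mice, where 8.58% of all genes were called, namely Oas2 (1.09, adjusted p = 0.000737), Ifit1 (0.65, adjusted p = 0.00665), Oasl2 (0.63, adjusted p = 0.0234) and Usp18 (0.58, adjusted p = 0.0403), and 3 of these (Oas2, Ifit1 and Oasl2) were called without mouse 18. In old + AP against old + vehicle mice 0 of 20 were called by edgeR (8 at an unadjusted p under 0.05, where 23.9% of all genes had one), with a list median of 0.29 against -0.0037 over all genes. Of 10 class II presentation genes 1 was called against young mice, a share near the 9.06% and 8.58% of all genes. It was H2-Ob, a class II editing gene of B cells, which fell by 0.86 on the log2 scale in old + vehicle mice (adjusted p = 0.00224) and by 0.60 in old + AP mice (adjusted p = 0.0255). The 10 class I and immunoproteasome genes themselves were not called in any of these comparisons.

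Marker RNA of blood, immune, bone and muscle cells differed in summed level between the libraries. The summed level of 8 T cell markers was 33.3 to 68.6 CPM in young, 31.1 to 124 in old + vehicle and 31.1 to 573 in old + AP mice, where mouse 18 was at 573 and the other 15 at 98.9 or less. The 8 NK cell markers were likewise at 307 CPM in mouse 18 and at 123 or less in the other AP-treated mice. Neutrophil markers (8 genes) summed to 7848 to 18905 CPM in young, 4792 to 25139 in old + vehicle and 8668 to 33282 in old + AP mice. Erythroid markers (8 genes) summed to 5509 to 22206, 2031 to 11799 and 2502 to 18924 CPM. RNA of marrow and blood cells was thus present in all libraries although the shafts had been centrifuged. Skeletal muscle markers (7 genes) summed to 11851 to 70286 CPM in young, 10508 to 82902 in old + vehicle and 5596 to 62976 in old + AP mice, so that muscle RNA was present in all libraries. Mouse 20 had the highest muscle level of its group and the lowest class I levels. Mouse 23 had a high muscle level as well (69252 CPM) together with the highest class I levels and the highest T cell level of its group (124 CPM). Bone was represented in all libraries, with 6 osteoblast markers at 3051.5 CPM or more in sum and 6 osteocyte markers at 283 to 3411 CPM. No list had a marker at 0 in every mouse of a group.

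Over 41 mice and after removal of the group means, the log2 sum of the T cell markers was related to each of the 10 genes, with r from 0.467 (Tapbp) to 0.825 (Nlrc5), rho from 0.507 to 0.767, and adjusted permutation p-values of 0.00418 or less over 130 relations (13 lists by 10 genes, chosen after the levels had been seen). Without the 2 mice farthest from the median of that sum, r was 0.420 to 0.749. The share of all genes that pass the same test was not computed, so the counts of genes passing in this paragraph have no background beside them. NK cell (r = 0.400 to 0.814, rho = 0.436 to 0.801), plasma cell (r = 0.429 to 0.612, rho = 0.416 to 0.679) and erythroid markers (r = 0.384 to 0.618, rho = 0.433 to 0.690) passed for all 10 genes by permutation. Macrophage markers (r = 0.355 to 0.694, rho = 0.503 to 0.721) passed for 9 by r and 10 by rho, and neutrophil markers (r = 0.259 to 0.682, rho = 0.305 to 0.732) for 7 by either. Skeletal muscle markers ran the other way for all 10 genes (r = -0.667 to -0.395, rho = -0.722 to -0.470, largest adjusted permutation p = 0.0283 for r), and without the 2 farthest mice r was -0.661 to -0.443. In young mice alone the muscle relation was -0.914 (Tap1) to -0.554 (Nlrc5), and in old + vehicle mice it was -0.618 to -0.187. Osteoblast (4 genes), osteoclast (4) and osteocyte markers (3 by r, 0 by rho) passed for some of the 10, adipocyte markers for 1 by rho alone, and B cell and endothelial markers for 0. Several of these relations differed in sign by group. For osteoblast markers r was 0.115 to 0.601 in young, 0.312 to 0.805 in old + vehicle and -0.450 to 0.218 in old + AP mice, and for osteoclast markers it was 0.198 to 0.603, 0.410 to 0.741 and -0.429 to 0.189. For osteocyte markers r was -0.112 to 0.417, 0.115 to 0.323 and -0.774 to -0.240 in the 3 groups, and -0.0932 to 0.151 over all mice without the 2 farthest, so the 3 negative relations over all mice (Tap1, Psmb8 and Psmb9) rest on those mice. For B cell markers r was 0.304 to 0.791 in young, 0.331 to 0.497 in old + vehicle and -0.435 to -0.125 in old + AP mice, and for endothelial markers 0.308 to 0.599, -0.143 to 0.114 and -0.489 to -0.168. These differences between groups were not tested. The part of these cell types in the levels of the 10 genes was not tested.

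By the same threshold as the 10 genes, 5 of 8 T cell markers and 2 of 8 NK cell markers rose and 1 NK cell marker fell in old + AP against young mice, and without mouse 18 these counts were 2, 1 and 1. Of all genes, 9.06% were called in old + vehicle and 8.58% in old + AP against young mice, so that 1 call in a list of 6 to 8 markers is near the background. In old + vehicle against young mice 0 T cell markers were called with all mice and 3 rose when mouse 18 was left out of the model. In that comparison 1 NK cell marker fell, Gzma (log2 fold change -1.39, adjusted p = 0.000903), and without mouse 18 in the model 2 others (Gzmb and Nkg7) rose. B cell markers fell for 5 of 8 in old + vehicle and 1 of 8 in old + AP against young mice (0 without mouse 18). Erythroid markers fell for 3 and 2 of 8, the macrophage marker Cd163 fell in both, and neutrophil markers rose for 0 and 2 of 8 (0 and 1 without mouse 18). Skeletal muscle markers rose for 1 of 7 and 0 of 7, osteoblast markers fell for 2 and 4 of 6 (2 and 3 without mouse 18), osteocyte markers rose for 2 and fell for 1 and 2 of 6 (1 and 1 without mouse 18, the AP-treated mouse with the lowest osteocyte sum, 283 CPM, next to 289 in mouse 19), and adipocyte markers rose for 1 and 0 and fell for 1 and 1 of 6. Plasma cell, endothelial and osteoclast markers had 0 calls by edgeR, with 1, 1 and 0 of 6 at an unadjusted p under 0.05 in old + vehicle and 2, 2 and 0 of 6 in old + AP against young mice (31.8% and 32.2% of all genes). In old + AP against old + vehicle mice 0 markers of any list were called by edgeR, with or without mouse 18, and at an unadjusted p under 0.05 each list counted 0 to 2 markers, against 23.9% of all genes. The part of these marker differences in the class I values was not tested.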

How the data were processed

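The authors sequenced tibial RNA of 41 mice and deposited raw counts per gene, not normalized, in 1 column per mouse. The submitters' processing notes name TopHat2 2.0.6, HTSeq and GRCm38. Annotation release and strand setting are not given in the sources used here. Groups were taken from the sample labels, which name no batch. Each column was taken as 1 mouse and 1 replicate from the labels. Counts of any 2 mice of a group differed beyond sampling noise (chi-square per degree of freedom 30.7 or more), so no 2 of their columns were resamplings of 1 library. Of 43346 genes, 32309 had a count and 19292 passed edgeR's expression filter. The counts were tested in edgeR 4.0.16 (R 4.3.3) with TMM scaling and a quasi-likelihood model of the 3 groups, and p-values were adjusted over all genes tested. The thresholds (adjusted p under 0.05, log2 fold change beyond 0.5) follow the study's methods. Standard errors come from the F statistic and 95% intervals from 1.96 SE. Log2 CPM used a prior count of 2. Ratios and correlations used permutation tests with 100000 resamples (SciPy 1.17.1, NumPy 2.4.6, pandas 2.3.3, Python 3.11.15). The edgeR script was tested on simulated data. DESeq2 1.42.0, other scalings, no filter, models of 2 groups, a robust fit, no fold threshold, heavy chains summed and each mouse left out were alternatives. The fits without mouse 18 for the lists, the spread without the lowest and highest mouse of each gene and the relations to marker sums were chosen after seeing the data. All 10 genes are named, with the 8 genes most like their mean. Other pathway genes are named where called, up to the 4 largest, or otherwise by the smallest p in their list, and not every such gene is printed. The 10 genes and all lists were chosen with earlier results of these data known.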

Additional observations from a re-analysis of the deposited data

How the results depend on the processing

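Under 49 alternatives per comparison (41 with 1 mouse left out and 8 others), 0 of the 10 genes were called in any comparison. Of 1890 alternative values, 1816 kept their direction and side of the threshold and 74 changed sign (59 fold changes and 15 ratio differences), all of them uncalled. With 1 mouse left out, the log2 fold change ranged in old + AP against young mice from -0.039 to 0.048 for B2m, -0.022 to 0.048 for H2-D1, -0.040 to 0.062 for H2-K1 and -0.014 to 0.048 for Tapbp. In old + vehicle against young mice it ranged from -0.11 to 0.081 for Nlrc5 and from -0.0035 to 0.12 for Psmb10, and in old + AP against old + vehicle mice from -0.054 to 0.14 for Psmb8, -0.090 to 0.14 for Psmb9 and -0.12 to 0.14 for Tap1. The log2 ratio of Psmb10 to Psmb7 differed by -0.18 to 0.064 (old + AP against old + vehicle) and by -0.21 to 0.033 (old + vehicle against young), and that of Psmb8 to Psmb5 by -0.12 to 0.083 (old + vehicle against young). With upper-quartile factors Nlrc5 was at -0.0092 in old + vehicle against young mice. The cause of these sign changes was not tested. Over all genes, calls in old + AP against old + vehicle mice were 14, 0 without a filter or in a model of the 2 groups, and 0 to 405 with 1 mouse left out. DESeq2 gave 204, over the 32309 genes with a count in place of the 19292 that passed the filter. This background thus depends on single mice and on the fit, and the parts of tool and gene set in the DESeq2 count were not separated. Without a fold threshold the calls over all genes were 33 in place of 14 in old + AP against old + vehicle mice, 3736 in place of 1748 in old + vehicle against young mice and 3437 in place of 1655 in old + AP against young mice. No paired analysis was possible because the mouse numbers of the labels are not shared between groups. The lowest count of any of the 10 genes in any mouse was 970, and the parts of depth and group size in what could be detected were not compared.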
